A study of Arabidopsis thaliana with 6 samples.

Results

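The genes described are those of G2, mitosis and cytokinesis in Arabidopsis root tips: the A- and B-type cyclins, their kinases, the MYB3R transcription factors, the Aurora kinases and spindle proteins, the spindle checkpoint, and the proteins of cytokinesis. The members were taken as a fixed list of 46 gene identifiers. All 46 were found among the 18734 genes of the count table, all 46 were in the RPKM table, and all 46 passed the filter on low counts. RNA was taken 5 days after planting from the last 0.5 cm of the primary root. The wild type was Columbia-0 (Col, 3 libraries), and the other genotype was ore15-2 (3 libraries), a line with a T-DNA insertion in ORE15, which encodes a PLATZ transcription factor, in the Columbia-0 background. No transgene, hormone or other agent is given for either group. The title of the study concerns the size of the root meristem, so the comparison asks whether transcripts of the division machinery differ between root tips of the 2 genotypes.

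Cells leave G2 when cyclin-dependent kinases bound to A- and B-type cyclins become active. Many of the genes concerned are transcribed in a burst from G2 to mitosis, which in plants is timed by MYB3R factors that bind the mitosis-specific activator (MSA) element. Chromosomes are then attached to the spindle under the control of the checkpoint, the cyclins are destroyed through the anaphase-promoting complex (APC/C), and plant cells divide by building a new wall on the phragmoplast. In the root tip these events take place in the meristem, which is only a portion of the dissected tissue.

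Col libraries had total counts of 17433440, 20333352 and 19285639 (replicates 1 to 3), and those of ore15-2 had 6706712, 6396903 and 16503138. The share of counts from mitochondrial genes lay between 0.183% and 0.250% for Col, whereas it was 2.91%, 3.20% and 0.328% for ore15-2 replicates 1 to 3. Replicates 1 and 2 of ore15-2 therefore stand apart, and counts of calls among the members are given with and without them. ORE15 (AT1G31040, paired with that name from background knowledge) had 13, 12 and 8 counts in Col and 0, 0 and 1 in ore15-2. The labels name the cell type as stem cells of the root meristem, but the tissue held differentiated cells as well. All 7 stem cell niche and meristem markers (PLT1, PLT2, PLT3, BBM, SHR, SCR and WOX5) were detected, and their summed level was between 137.2 and 147.8 CPM, the gene's count scaled to the size of its library by TMM, in Col. The 6 root hair markers summed to between 254.7 and 300.6 CPM, the 6 endodermis markers to between 381.7 and 487.0 CPM and the 5 xylem markers to between 164.0 and 196.2 CPM in the same libraries. The labels do not state separate cultures for the libraries, and 2 seedlings per genotype are stated for 3 libraries, so the p-values reflect the spread among these 6 libraries alone, part of which may be technical. The line is 1 insertion allele. A segment of chromosome 1 beside ORE15 (8692630 to 11059037, TAIR10.1) was known as raised from earlier results of these data, and its bounds were taken from them. Of its 401 tested genes 318 rose in ore15-2 at an edgeR adjusted p under 0.05, beside 6.47% of all genes. Because the bounds came from these data, that count is a description of the segment and no separate test of it. None of the 46 members lies in that segment.

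Summed over the 46 members, the level was nearly the same in both genotypes, but the roles lay on both sides of equality. Their summed level was 898, 890 and 874 CPM in Col replicates 1 to 3 and 909, 897 and 838 CPM in ore15-2 replicates 1 to 3. The means were 887 ± 12.4 CPM in Col and 881 ± 38.2 CPM in ore15-2 (SD, n = 3 each), a ratio of 0.993. The groups overlapped, with ore15-2 replicate 1 the highest of the 6 libraries and ore15-2 replicate 3 the lowest. The CDKs and their partners made up 282 CPM of the Col mean, and their own ratio was 1.066. It was 1.021 for the MYB3R factors, 0.999 for the A-type cyclins and 0.957 for cytokinesis. The ratio was 0.949 for Aurora kinases, spindle and centromere. B-type cyclins, and the spindle checkpoint and APC/C genes, were both at 0.943. The differences between roles were not tested. The near equality of the summed level of the members holds for TMM scaling: scaled by library totals alone, the summed log2 ratio was -0.26. On that scale the median log2 fold change over all genes, a different measure from a ratio of sums, was -0.23. In whole tissue, fewer dividing cells and less RNA per dividing cell cannot be told apart.

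Of the 46 genes 0 rose and 0 fell at an edgeR adjusted p under 0.05, while 9.9% of all 18726 genes tested were called in the same fit (6.47% higher and 3.43% lower in ore15-2), and 9.48% of those with a mean CPM in the members' range. DESeq2 and limma-voom also called 0 of the 46. At an unadjusted edgeR p under 0.05 there were 3 genes (6.52%), CYCA2;1, CYCB2;4 and CKS1, against 26.9% of all genes. The median log2 fold change, ore15-2 over Col, was -0.06 over the members and 0.00 over all genes, and 32 of the 46 values (69.6%) were below 0, against 50.1% of all genes. Taken library by library, the members' median log2 difference from the Col mean was -0.02 in ore15-2 replicate 1, -0.07 in replicate 2 and -0.09 in replicate 3. For 8 members (17.4%) every ore15-2 library was below every Col library, a share near the 16.3% of all genes, and for 3 members (6.52%) every ore15-2 library was above, against 18.2% of all genes.

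How large a difference these 6 libraries leave room for was read from the 95% interval of each fold change, taken gene by gene with no correction for their number. Like the p-values, the intervals treat the 3 libraries of a genotype as independent, though 2 seedlings per genotype are stated for them. Part of the spread behind them may be technical. For 40 of the 46 genes (87.0%) the whole interval lay within 1.5-fold in either direction, and for 45 (97.8%) within 2-fold. Among all tested genes with a mean CPM in the members' range, the shares were 51.8% and 87.1%, and among all genes tested 47.7% and 82.3%. The 6 genes whose interval reached past 1.5-fold were CYCA2;1, CYCB2;1, CYCB2;3, CYCB2;4, MYB3R3 and POK1. CYCA2;1 was the single gene whose interval reached past 2-fold, up to 2.28-fold higher in ore15-2. These intervals hold for TMM scaling. With library totals alone as the scale, the median log2 fold change of the members was -0.30, beside -0.23 over all genes.

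**Figure D1:**
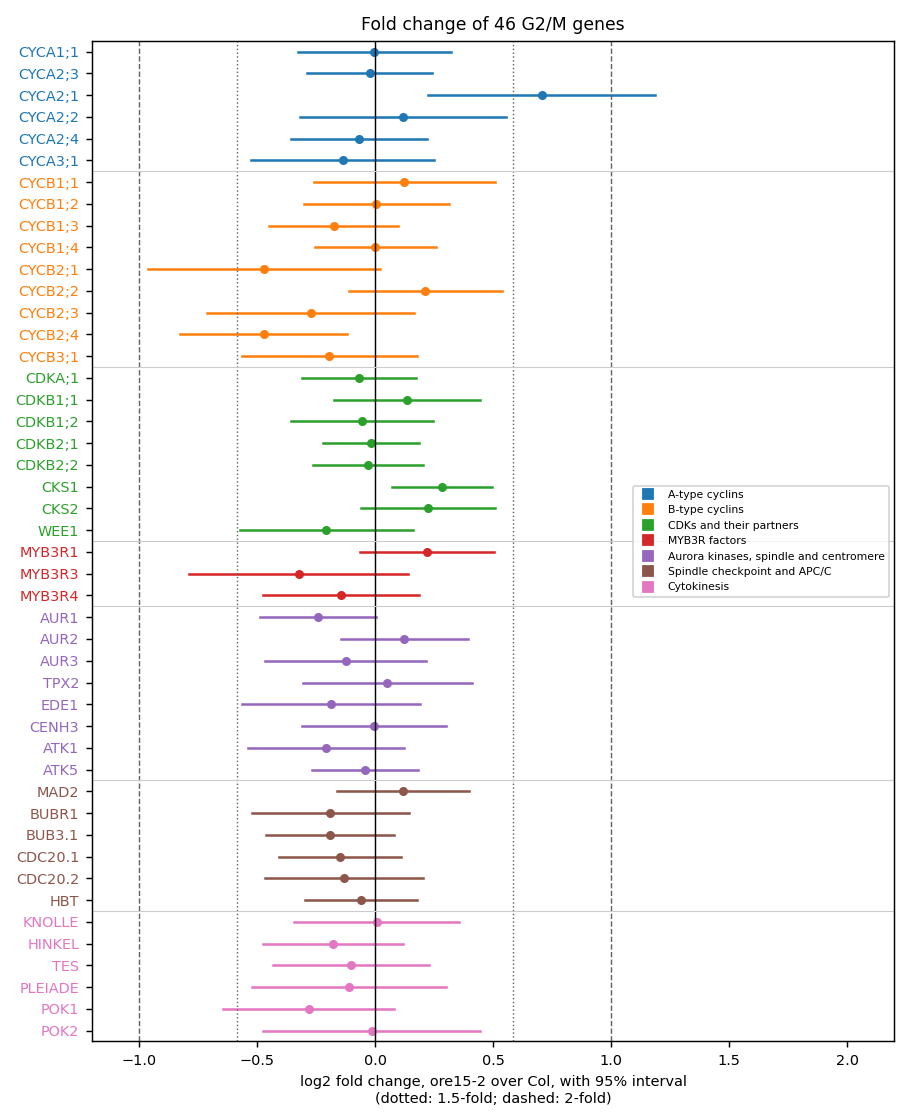
Log2 fold change of each of the 46 genes, ore15-2 over Col (points), with its 95% interval from the edgeR fit (lines), coloured by role; dotted and dashed vertical lines mark 1.5-fold and 2-fold. For 40 of the genes the interval lies between the dotted lines, and the interval of CYCA2;1 is the only one that crosses a dashed line.

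The calls depended on which ore15-2 libraries were used. Without ore15-2 replicate 3 there were 4 calls among the members (edgeR adjusted p under 0.05), with CKS1 and CKS2 higher and CYCB2;1 and MYB3R3 lower in ore15-2, while 35.3% of all genes were called in that fit. Without ore15-2 replicate 2 the single call was MYB3R1, which was higher (11.3% of all genes). With ore15-2 replicates 1 and 2 both left out, 3 members were called, MYB3R1 higher and CYCB2;4 and KNOLLE lower (16.6% of all genes), and the lone library is then assumed to vary like Col. Each of these fits called a different set, MYB3R1 being the gene that 2 of them share. Without ore15-2 replicate 1 (4.88% of all genes), and without any 1 of the Col libraries, 0 members were called by edgeR.

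Levels per gene length spanned more than 2 orders of magnitude in Col. CKS2 was highest at 239.1 ± 9.72 RPKM and CKS1 next at 193.5 ± 6.07 RPKM (SD, n = 3). The kinase CDKA;1 followed with 74.0 ± 2.07 RPKM, then the checkpoint protein MAD2 with 53.0 ± 4.00 and the syntaxin KNOLLE with 46.6 ± 1.06. KNOLLE and CDKB2;1 (46.4 ± 1.25 RPKM) did not differ beyond their spread. At the other end were POK2 with 1.01 ± 0.249 RPKM, POK1 with 1.33 ± 0.174 and CYCA2;1 with 1.83 ± 0.311. The values of POK2 and POK1 overlapped. The fewest counts behind any value were 13, for CYCB2;1 in ore15-2 replicate 2, and the most were 1365, for CDKA;1 in Col replicate 2.

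**Figure D2:**
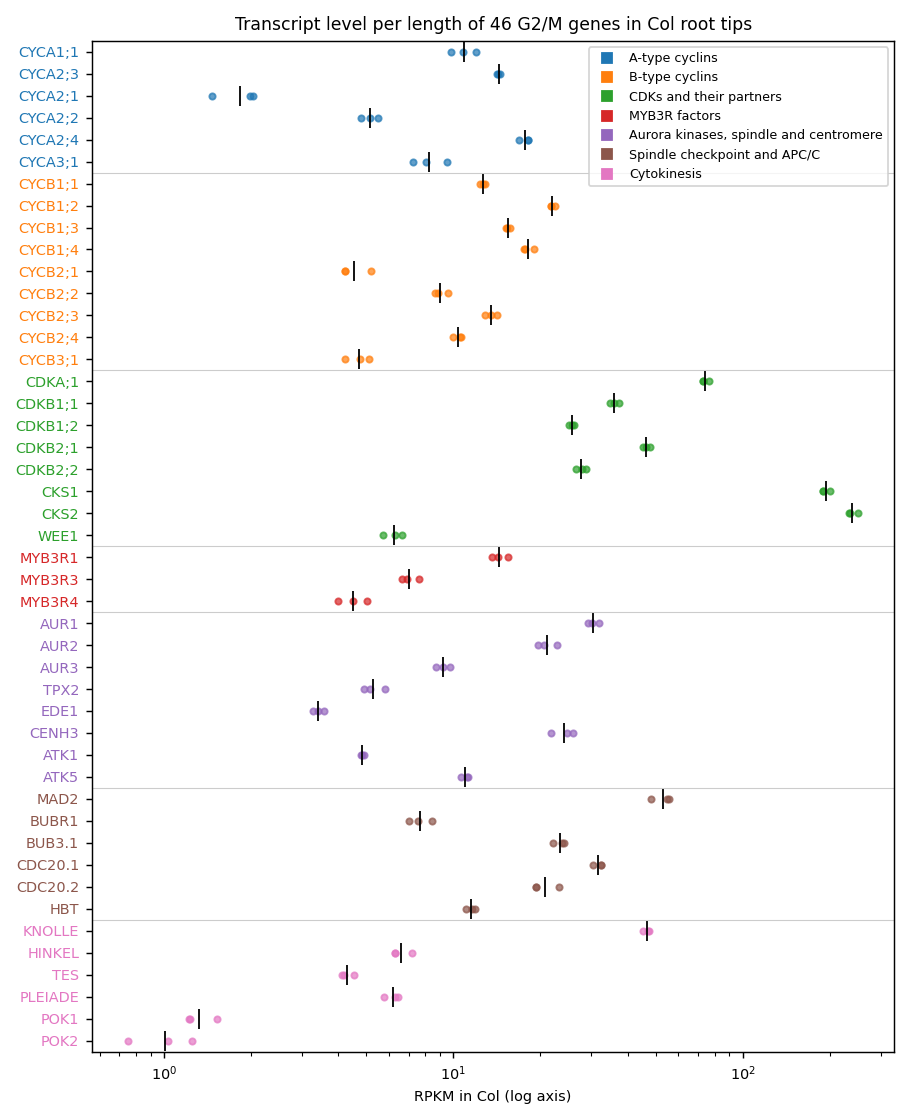
RPKM of each of the 46 genes in the 3 Col libraries (points; ticks mark the mean) on a log axis, coloured by role. The small CDK-binding proteins CKS1 and CKS2 lie near 200 RPKM and the phragmoplast-orienting kinesins POK1 and POK2 near 1 RPKM.

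Among the 6 A-type cyclins, which act from S phase into early mitosis, the median log2 fold change was -0.01 and 0 passed the test, with 1 at an unadjusted p under 0.05. That 1 gene was CYCA2;1 (AT5G25380, chromosome 5, 8814517 to 8817887). Its level was 2.33, 2.45 and 1.77 CPM in Col replicates 1 to 3 and 4.04, 3.18 and 3.49 CPM in ore15-2 replicates 1 to 3. All 3 ore15-2 libraries lay above all Col libraries, on 37 to 54 counts per library in Col and 16 to 61 in ore15-2. The log2 fold change was 0.71 (95% interval 0.22 to 1.19, edgeR adjusted p = 0.0712), the largest of the 46, and the adjusted p ranged from 0.0649 to 0.253 over the alternative settings. Per length, CYCA2;1 is the least expressed of the 4 CYCA2 genes. The other 3, whose products pair with B-type kinases, had values of -0.02 (CYCA2;3), -0.07 (CYCA2;4) and 0.12 (CYCA2;2), and summed over the 4 genes the level was 48.3 ± 1.78 CPM in Col and 49.0 ± 2.54 CPM in ore15-2 (SD, n = 3). CYCA2;4, the most abundant per length at 17.7 ± 0.790 RPKM in Col, had 22.6, 23.1 and 21.3 CPM in Col and 24.1, 22.3 and 18.4 CPM in ore15-2 (edgeR adjusted p = 0.759). The groups overlapped, ore15-2 holding both the highest and the lowest library. CYCA1;1, a cyclin of mitosis, and CYCA3;1, a cyclin expressed around S phase, had values of -0.0046 and -0.14.

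The 9 B-type cyclins drive entry into mitosis, and CYCB1;1 is the classic marker of cells at G2 and M. CYCB1;1 (AT4G37490) had 14.6, 15.2 and 14.6 CPM in Col and 19.4, 17.5 and 12.5 CPM in ore15-2, a log2 fold change of 0.12 (95% interval -0.26 to 0.51, edgeR adjusted p = 0.667). The Col libraries were close together, and the ore15-2 libraries lay on both sides of them, replicate 3 below and replicates 1 and 2 above. CYCB1;2 (AT5G06150), the most abundant B-type cyclin per length, likewise had ore15-2 replicate 3 below Col and replicates 1 and 2 above, with 26.2, 27.6 and 26.6 CPM in Col and 28.4, 31.4 and 22.1 CPM in ore15-2 (log2 fold change 0.0053, 95% interval -0.30 to 0.31, edgeR adjusted p = 0.985). CYCB1;3 had -0.18 and CYCB1;4 had 0.00066. Summed over the 4 CYCB1 genes, the level was 78.2 ± 1.26 CPM in Col and 78.3 ± 6.46 CPM in ore15-2.

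The CYCB2 group was more uneven, at 44.0 ± 0.900 CPM in Col and 37.6 ± 6.01 CPM in ore15-2 when summed over its 4 genes. CYCB2;4 (AT1G76310) had 12.2, 12.6 and 11.9 CPM in Col and 10.7, 7.95 and 8.06 CPM in ore15-2. Every ore15-2 library was below every Col library, with a log2 fold change of -0.47 (95% interval -0.83 to -0.12, edgeR adjusted p = 0.0927, between 0.0164 and 0.275 over the alternatives). CYCB2;1 had 6.01, 5.00 and 4.97 CPM in Col and 3.55, 2.58 and 4.63 CPM in ore15-2, also without overlap (log2 fold change -0.47, 95% interval -0.96 to 0.02, edgeR adjusted p = 0.202). CYCB2;3 had 15.7, 15.2 and 16.7 CPM in Col and 14.1, 8.55 and 15.6 CPM in ore15-2, where replicate 2 was farthest below Col and replicate 3 lay within it (log2 fold change -0.27). CYCB2;2 stood on the other side, at 11.1, 10.5 and 10.2 CPM in Col and 14.1, 11.7 and 11.3 CPM in ore15-2, every ore15-2 library being above every Col library (log2 fold change 0.21, edgeR adjusted p = 0.371). The call rule was met by none of the 4.

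The start regions of 7 B-type cyclins are shown because most of them carry what most members share in sequence; CYCB1;4 and CYCB3;1 are not shown, since their cores (2 and 1) lie after the annotated start. The core of the MSA element is AACGG, read as CCGTT on the other strand. In the sequences that follow, from the TAIR10.1 reference, written 5′ to 3′ on the strand of the gene, capitals mark the core on either strand, and each stretch lies wholly before the annotated start of the gene.
CYCB1;1 (chr4:17624309-17624488, minus strand): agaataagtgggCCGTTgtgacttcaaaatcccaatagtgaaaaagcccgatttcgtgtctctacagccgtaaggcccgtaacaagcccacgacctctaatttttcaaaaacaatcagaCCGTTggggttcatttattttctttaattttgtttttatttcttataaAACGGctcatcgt
CYCB1;2 (chr5:1861704-1861853, minus strand): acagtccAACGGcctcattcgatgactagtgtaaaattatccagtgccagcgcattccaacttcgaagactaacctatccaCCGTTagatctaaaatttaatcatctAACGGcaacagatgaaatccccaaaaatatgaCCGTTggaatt
CYCB1;3 (chr3:3627274-3627348, minus strand): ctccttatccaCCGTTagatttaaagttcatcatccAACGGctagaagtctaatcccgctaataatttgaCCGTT
CYCB2;1 (chr2:7663910-7664019, plus strand): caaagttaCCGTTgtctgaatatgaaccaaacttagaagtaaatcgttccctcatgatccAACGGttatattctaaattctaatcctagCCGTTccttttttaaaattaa
CYCB2;2 (chr4:16901416-16901515, plus strand): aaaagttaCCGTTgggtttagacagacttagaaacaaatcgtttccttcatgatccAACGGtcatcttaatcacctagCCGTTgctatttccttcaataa
CYCB2;3 (chr1:7137854-7137953, minus strand): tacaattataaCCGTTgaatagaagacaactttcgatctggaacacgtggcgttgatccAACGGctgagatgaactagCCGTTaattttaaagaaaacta
CYCB2;4 (chr1:28630790-28630939, minus strand): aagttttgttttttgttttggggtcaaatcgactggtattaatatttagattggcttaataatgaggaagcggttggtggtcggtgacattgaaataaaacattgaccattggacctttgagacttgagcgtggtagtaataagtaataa
CYCB2;1, CYCB2;2 and CYCB2;3 each hold 3 cores in the same order of orientation, with the middle core on the strand of the gene and the outer cores on the other. The middle core begins 52, 48 and 48 bases after the first, and the last begins 29, 22 and 19 bases after the middle one. The middle core sits in a stretch common to the 3 genes, tgatccAACGG, of 11 bases. CYCB1;2 and CYCB1;3 share a stretch of 15 bases around a core on the other strand, tatccaCCGTTagat. In CYCB2;4 there is no core in the window. On the log2 fold change scale, the genes that share the layout were at -0.47 (CYCB2;1), 0.21 (CYCB2;2) and -0.27 (CYCB2;3); their intervals overlap, and the differences between them were not tested.

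Over the 46 members, 29 (63.0%) hold AACGG on either strand in the 300 bases from 250 before to 50 after the annotated start, against 24.7% of the 27437 protein-coding genes and 26.3% of the 18403 that are in the count table. At least 2 cores were found in 17 members (37.0%), against 4.89% of all protein-coding genes. The pattern called the full consensus here adds flanking letters to the core and has 10 letters. It reads C or T, then C, then C or T, then the core, then C or T, then C or T. On either strand, it was found in 11 members (23.9%), against 1.24% of all protein-coding genes. By role, it was in 7 of 9 B-type cyclins, 2 of 6 cytokinesis genes, 1 of 8 spindle genes and 1 of 6 checkpoint genes, and in 0 of 6 A-type cyclins, 0 of 8 CDKs and partners and 0 of 3 MYB3R genes. The core itself was in 8 of 9 B-type cyclins and 5 of 6 cytokinesis genes, but in 3 of 8 CDKs and their partners. Of the 58 cores 44 lie wholly before the start and the median position is 65 bases before it. A match is a description of the letters and does not show that a factor binds. Members with a core had a median log2 fold change of -0.10 (29 genes) and those without one -0.06 (17 genes), while the 11 with the full consensus had a median of 0.00066, with 6 above 0 and 5 below; 0 genes of any of these groups were called.

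**Figure D3:**
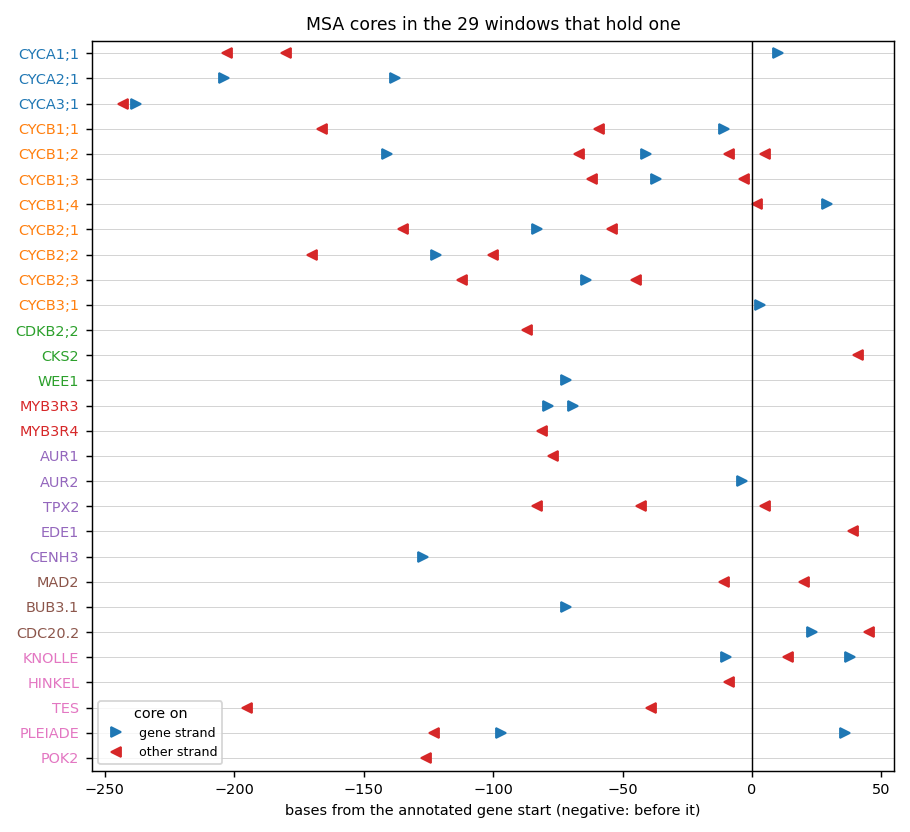
Position of every MSA core in the windows of the 29 members that hold one, in bases from the annotated gene start; arrowheads pointing right and left mark cores on the strand of the gene and on the other strand. CYCB2;1, CYCB2;2 and CYCB2;3 show the same order of 3 cores.

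The cyclin-dependent kinases and their partners had a median of -0.02, with 0 of 8 passing the test and 1 at an unadjusted p under 0.05. CDKA;1, the main kinase of the whole cycle, had 57.9, 62.0 and 58.9 CPM in Col and 61.9, 59.6 and 49.8 CPM in ore15-2 (log2 fold change -0.07, 95% interval -0.31 to 0.17). The plant-specific B-type kinases, present from S phase or G2 to mitosis, were at 0.14 (CDKB1;1), -0.06 (CDKB1;2), -0.02 (CDKB2;1) and -0.03 (CDKB2;2). CDKB2;1 had one of the tightest intervals of the 46, from -0.22 to 0.19, with 39.2, 41.2 and 38.9 CPM in Col and 38.5, 41.4 and 38.5 CPM in ore15-2. WEE1, a kinase that restrains the cycle after DNA damage, was at -0.21.

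CKS1 and CKS2 encode small proteins that dock CDK complexes to their substrates, and they lie next to each other on chromosome 2 (CKS1 from 11910569 to 11911802 and CKS2 from 11912151 to 11913425, both on the minus strand). CKS1 had 47.55, 45.9999 and 45.91 CPM in Col and 54.9, 61.6 and 53.5 CPM in ore15-2. Every ore15-2 library lay above every Col library (log2 fold change 0.28, 95% interval 0.07 to 0.49, edgeR adjusted p = 0.0942, between 0.0274 and 0.809 over the alternatives). CKS2 had 52.6, 54.2 and 57.7 CPM in Col and 65.4, 74.8 and 53.5 CPM in ore15-2, where replicate 3 lay among the Col libraries (log2 fold change 0.22, 95% interval -0.06 to 0.51, edgeR adjusted p = 0.284). Both values hold for TMM scaling: with library totals alone CKS1 was at 0.04 and CKS2 at -0.03. The coding sequences of the pair are 85.7% identical with at most 20 identical bases in a row, and CKS2 overlaps AT2G27980 by 67 bp on the same strand.

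The 3 MYB3R genes encode the factors that read the MSA element. MYB3R1 and MYB3R4 are known as activators, MYB3R3 as a repressor, and MYB3R1 also has a repressing role. MYB3R1 (AT4G32730) had 32.4, 30.5 and 29.001 CPM in Col and 38.1, 28.8 and 39.1 CPM in ore15-2 (log2 fold change 0.22, 95% interval -0.07 to 0.50, edgeR adjusted p = 0.295). Replicates 1 and 3 of ore15-2 were above Col and replicate 2 was below it. MYB3R3 had 10.4, 9.63 and 9.22 CPM in Col and 6.62, 5.57 and 9.95 CPM in ore15-2 (log2 fold change -0.32, 95% interval -0.79 to 0.14). Here replicates 1 and 2 were below Col and replicate 3 lay within it. MYB3R4 had 13.0, 10.5 and 11.9 CPM in Col and 10.3, 9.94 and 11.4 CPM in ore15-2, with overlapping groups. MYB3R1 overlaps AT4G32750 by 214 bp on the opposite strand, and reads of such pairs may not be separated because the strand setting of the counting is not given in the sources used here.

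In the group of Aurora kinases, spindle and centromere proteins 0 of 8 passed the test, 0 had an unadjusted p under 0.05, the median was -0.08, and all 8 intervals lay within 1.5-fold. AUR1, an Aurora kinase of the spindle and the cell plate, had 24.0, 26.0 and 23.7 CPM in Col and 19.5, 22.5 and 20.5 CPM in ore15-2. The groups did not overlap, ore15-2 being lower (log2 fold change -0.24, 95% interval -0.49 to 0.005, edgeR adjusted p = 0.193, between 0.0683 and 0.443 over the alternatives). AUR1 overlaps PFK6 by 290 bp on the opposite strand. Its close relative AUR2, 83.2% identical in coding sequence, was at 0.12 with overlapping groups, and AUR3, a centromeric Aurora kinase, was at -0.13. CENH3, the histone that marks the centromere, was almost level, with 12.5, 12.2 and 10.7 CPM in Col and 11.6, 11.7 and 11.9 CPM in ore15-2 (log2 fold change -0.0044). The spindle protein TPX2 was at 0.05, the microtubule-binding protein EDE1 at -0.19, and the minus-end kinesins ATK1 and ATK5 at -0.21 and -0.04. EDE1 and ATK1 were lower in every ore15-2 library than in every Col library.

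Spindle checkpoint and APC/C genes had a median of -0.14, 0 of 6 passing and 0 at an unadjusted p under 0.05, and all 6 intervals lay within 1.5-fold. MAD2, the checkpoint protein that holds back CDC20, had 31.1, 28.0 and 32.1 CPM in Col and 35.2, 36.6 and 28.1 CPM in ore15-2 (log2 fold change 0.12, edgeR adjusted p = 0.566, and -0.13 with library totals alone). BUB3.1, a checkpoint protein at the kinetochore, had 22.2, 22.3 and 20.7 CPM in Col and 21.5, 17.5 and 18.2 CPM in ore15-2 (log2 fold change -0.19, 95% interval -0.46 to 0.08, edgeR adjusted p = 0.336). For both genes the groups overlapped. The checkpoint protein BUBR1 was at -0.19, with 7.27, 7.36 and 7.21 CPM in ore15-2, all below the 7.64 to 9.02 CPM of Col. CDC20.1 and CDC20.2, the activators that open the APC/C to the mitotic cyclins, were at -0.15 and -0.13. They lie next to each other on chromosome 4, and their coding sequences are 97.5% identical with a run of 314 identical bases, so how their reads were divided is uncertain. HBT, an APC/C subunit needed for root meristem development, was at -0.06, with an interval from -0.30 to 0.18.

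Genes of cytokinesis had a median of -0.11, 0 of 6 passing and 0 at an unadjusted p under 0.05. KNOLLE (AT1G08560, chromosome 1, 2709525 to 2711000), the syntaxin of the cell plate, had 38.1, 40.5 and 40.3 CPM in Col and 40.9, 49.5 and 30.9 CPM in ore15-2. The ore15-2 libraries spread on both sides of Col, with replicate 3 the lowest and replicate 2 the highest of all 6 (log2 fold change 0.0066, 95% interval -0.34 to 0.36, edgeR adjusted p = 0.984). With replicates 1 and 2 of ore15-2 left out the value was -0.35 (edgeR adjusted p = 0.022). KNOLLE overlaps NPQ1 by 464 bp on the opposite strand. POK1, a kinesin that guides the phragmoplast to the division site, had 8.50, 6.95 and 6.98 CPM in Col and 5.98, 5.96 and 6.35 CPM in ore15-2, all lower than Col (log2 fold change -0.28, 95% interval -0.64 to 0.08, edgeR adjusted p = 0.289), while its relative POK2 was at -0.01. The phragmoplast kinesins HINKEL and TES were at -0.18 and -0.10, and PLEIADE, which cross-links phragmoplast microtubules, was at -0.11.

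Cores before the start of a gene of each of these last roles, shown for comparison with the cyclins, again with AACGG or CCGTT in capitals, were as follows.
KNOLLE (chr1:2711001-2711060, minus strand): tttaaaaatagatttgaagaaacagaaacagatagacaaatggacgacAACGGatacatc
PLEIADE (chr5:20964613-20964672, minus strand): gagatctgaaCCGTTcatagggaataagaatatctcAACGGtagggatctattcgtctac
BUB3.1 (chr3:6805532-6805591, plus strand): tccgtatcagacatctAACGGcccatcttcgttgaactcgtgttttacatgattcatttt
AUR1 (chr4:15842343-15842402, plus strand): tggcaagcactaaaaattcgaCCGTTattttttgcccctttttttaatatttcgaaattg
KNOLLE holds 1 core just before its start and 2 more after it, and PLEIADE holds a pair of opposite cores before its start and 1 after it. BUB3.1 and AUR1 hold 1 core each. Of these genes KNOLLE and BUB3.1 carry the full consensus in the window. In BUB3.1 it lies at the core printed here, whereas in KNOLLE it lies at a core after the start that is not printed.

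**Figure D4:**
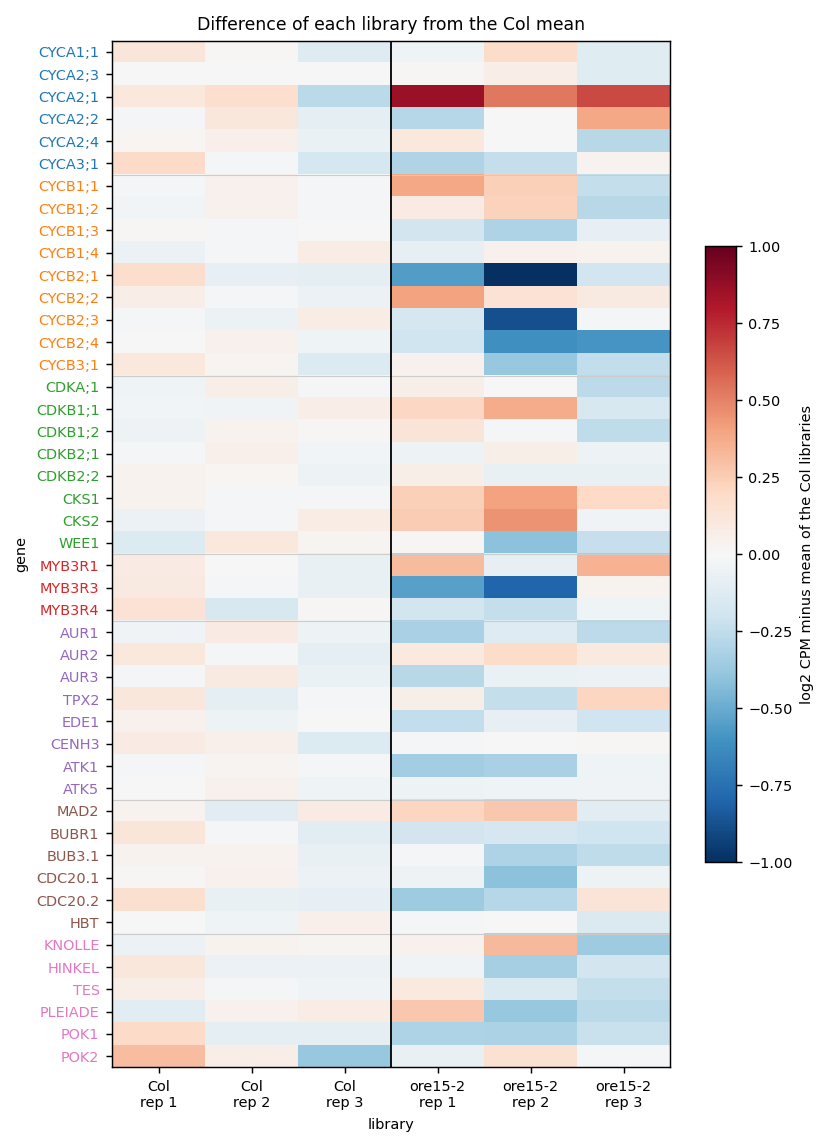
Difference of each library from the mean of the Col libraries, in log2 CPM, for the 46 genes (rows, names coloured by role); red is higher and blue lower. CYCA2;1 is higher in the 3 ore15-2 libraries, CYCB2;4 is lower in them, and genes such as CYCB1;1, CYCB1;2 and KNOLLE differ in sign between ore15-2 replicates 1 and 2 and replicate 3.

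The ore15-2 libraries differed more among themselves than the Col libraries did. For 36 of the 46 genes (78.3%) the range over the ore15-2 libraries was wider than that over the Col libraries, against 85.2% of all genes tested. The median range was 0.32 in ore15-2 and 0.14 in Col on the log2 scale, against 0.46 and 0.17 over all genes tested. The lowest ore15-2 library was replicate 3 for 16 genes, replicate 2 for 17 and replicate 1 for 13. By role, cytokinesis genes summed to 97.2, 96.8 and 79.1 CPM in ore15-2 replicates 1, 2 and 3 beside 93.0 to 97.4 CPM in Col, so replicate 3 alone was below Col. MYB3R genes summed to 55.1, 44.3 and 60.4 CPM in ore15-2 beside 50.1 to 55.7 CPM in Col, and there replicate 2 was the low one and replicate 3 the high one.

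Other genes of the pathway were described from a list of 53, of which 47 were tested; 6 are not analysed here, 4 of them because the reference gives their identifier another name or none. It covers further cyclins, APC/C subunits, kinetochore and cohesion proteins, the kinase cascade of cytokinesis and microtubule proteins. Of the 47 genes 0 passed the edgeR threshold in either direction, against 9.9% of all genes, and DESeq2 and limma-voom called 0. At an unadjusted edgeR p under 0.05 there were 3 (6.38%), against 26.9% of all genes. The 95% interval lay within 1.5-fold for 32 (68.1%) and within 2-fold for 45 (95.7%), against 47.7% and 82.3% of all genes. Their summed level was 1104, 1086 and 1072 CPM in Col and 1012, 915 and 1030 CPM in ore15-2, every ore15-2 library being below every Col library (ratio 0.907), unlike the sum over the 46 members, where the groups overlapped. The difference between the 2 sums was not tested. The median log2 fold change was -0.16, 38 values (80.9%) were below 0, against 50.1% of all genes, and in 14 genes (29.8%) every ore15-2 library was below every Col library, against 16.3% of all genes. The smallest p belonged to 3xHMG-box2, a chromosome-binding protein of mitosis, with 64.5, 56.1 and 53.9 CPM in Col and 44.6, 28.2 and 51.2 CPM in ore15-2 (log2 fold change -0.47, 95% interval -0.89 to -0.05, edgeR adjusted p = 0.142). ANP2, a kinase of the cytokinesis cascade, had 7.99, 6.68 and 6.498 CPM in Col and 4.36, 4.77 and 5.95 CPM in ore15-2 (log2 fold change -0.44, edgeR adjusted p = 0.161). Both were lowest in ore15-2 replicates 1 or 2 and nearest to Col in replicate 3. Without ore15-2 replicate 3, 9 of the 47 were called, 1 higher and 8 lower, beside 35.3% of all genes in that fit. With replicates 1 and 2 left out 1 was called, the centromere protein CENP-C, which was lower, beside 16.6% of all genes.

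Values of other cell types and of DNA replication stand beside the members as follows, and their part in the members' values was not tested. The 12 replication genes had 0 calls with edgeR and a median of -0.15, and DESeq2 called 1, which was lower in ore15-2. Their sum was 421.8, 396.2 and 397.1 CPM in Col and 443.6, 476.7 and 349.2 CPM in ore15-2, replicate 3 again the lowest. Log2 fold changes were below 0 for 9 of them and above 0 for PCNA1, PCNA2 and TSO2. MCM3, MCM5 and MCM6, 3 of the 12, were lower in every ore15-2 library than in every Col library, against 16.3% of all genes. The 7 stem cell niche and meristem markers had 0 calls and summed to 155.1, 161.8 and 114.2 CPM in ore15-2 beside 137.2 to 147.8 CPM in Col. Under that sum, WOX5 (log2 fold change -0.60, edgeR adjusted p = 0.129) and PLT3 (-0.26) were lower in every ore15-2 library than in every Col library. PLT2 (0.31) was higher in every ore15-2 library, and for the others the groups overlapped. WOX5 rested on 6 to 50 counts per library. Root hair and phloem markers passed the test in the same fit. Of 6 root hair markers 5 rose, and their sum was 472.8, 797.2 and 467.3 CPM in ore15-2 beside 254.7 to 300.6 CPM in Col. Of 4 phloem markers 3 fell, and their sum was 40.7, 36.2 and 55.8 CPM in ore15-2 beside 83.9 to 103.0 CPM in Col. Of the 5 xylem, 6 endodermis and 4 root cap markers 0, 1 and 1 rose and 0 fell, and no marker of these lists was at 0 in any library. Root cap markers summed to 48.1, 44.3 and 36.6 CPM in ore15-2 beside 27.4 to 34.0 CPM in Col. Xylem markers summed to 143.1, 174.8 and 183.0 CPM and endodermis markers to 466.2, 674.2 and 528.7 CPM in ore15-2, both overlapping Col. The root hair and phloem calls depended on scaling and on the Col libraries. With no scaling beyond totals, and on RPKM with pseudocount 1, 2 root hair markers rose and 2 phloem markers fell. Without Col replicate 1, 1 root hair marker rose and 2 phloem markers fell. Without Col replicate 2 or 3 the numbers were 2 and 2. Calls over all genes also dropped in these fits, from 1854 to between 634 and 1110. With ore15-2 replicates 1 and 2 left out, 1 ore15-2 library remains, and marker calls from that fit are not given. Without ore15-2 replicate 3, 2 replication genes rose and 3 fell, and 0 niche and meristem markers were called, beside 35.3% of all genes. In that fit 5 root hair and 2 root cap markers rose, and 4 phloem markers and 1 xylem marker fell. Of the endodermis markers 1 rose and 1 fell. RSL4 of the root hair list and FEZ of the root cap list lie in the raised segment of chromosome 1.

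**Figure D5:**
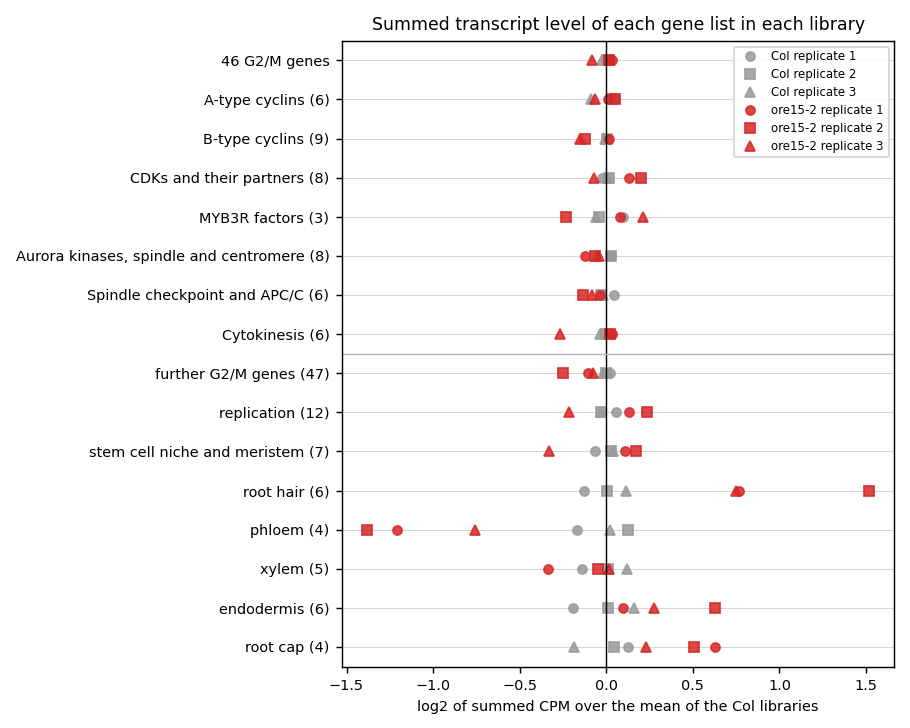
Summed CPM of each gene list in each library, as log2 over the mean of the Col libraries; grey symbols are Col, red symbols are ore15-2, and the number of genes in each list is in parentheses. The 46 members lie near 0 in all 6 libraries, while the root hair list is higher and the phloem list lower in the 3 ore15-2 libraries.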

How the data were processed

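The submitters' processing notes list FastQC, cutadapt, TopHat2, HTSeq and the genome build TAIR10. Neither the strand setting nor the annotation release is given in the sources used here. The authors deposited raw read counts per gene and, separately, RPKM values (reads scaled by gene length and library total). Per the labels' protocols, poly(A) RNA with an integrity number of at least 6.7 was made into stranded TruSeq libraries. Libraries were grouped by their titles.

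edgeR 4.0.16 (R 4.3.3) was run on the counts (quasi-likelihood F-test, TMM scaling, filterByExpr, genotype only) over 18726 genes, with Benjamini-Hochberg adjustment over all of them and a threshold of 0.05. The standard error was the absolute log2 fold change divided by the square root of F, and the 95% interval used the t quantile at the fit's degrees of freedom. Differences by library use log2 CPM (prior count 2). Alternatives were RLE, upper-quartile or no scaling, DESeq2 1.42.0, limma 3.58.1 (voom, and log2(RPKM + 1) or log2(RPKM + 0.1) with mean RPKM 1 as the minimum, or unfiltered), no filter, at least 10 counts in every library, a replicate block, organelle genes left out, and libraries left out. The code was tested on simulated counts with a common dispersion. Those counts did not include the differences among the ore15-2 libraries, so the test does not bear on how calls depend on them.

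Names and positions came from RefSeq TAIR10.1, in which all 46 identifiers had an entry; the deposited tables hold no coordinates. Start windows were read from that genome. The members and lists were chosen with earlier results of these data known. In each role the genes given in full were those past the threshold, the one with the smallest p and the one with the highest mean RPKM in Col; others described by library were chosen after their values were seen. A floor of 3 counts is 0.136 to 0.596 CPM, and floors cover counting error only. No pair of libraries of one genotype agreed within sampling noise (chi-square per gene at least 2.14).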

Additional observations from a re-analysis of the deposited data

How the results depend on the processing

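Of the 19 alternatives, 16 left 0 members called. The others called 1 (without ore15-2 replicate 2), 4 (without ore15-2 replicate 3, so 0 to 4 over single libraries) and 3 (ore15-2 replicates 1 and 2 left out). Of the 47 further genes 9 were called without ore15-2 replicate 3 (0 to 9 over single libraries) and 1 when ore15-2 replicates 1 and 2 were omitted. Of all genes, 1854 were called in the edgeR fit, 983 with no scaling beyond totals (431 higher, 552 lower), 1110 on RPKM with pseudocount 1 (469 higher, 641 lower), 1037 with pseudocount 0.1, 1133 without the RPKM filter, 3109 from ore15-2 replicate 3 alone against Col, and 634 to 6612 with single libraries left out (6612 without ore15-2 replicate 3). The members' median, -0.065, became -0.11 with upper-quartile scaling, -0.30 with no scaling, and -0.26, -0.28 and -0.26 in the 3 RPKM fits, where the median of all genes was -0.21, -0.23 and -0.21; it ranged from -0.104 to -0.050 over single libraries. The summed log2 ratio became -0.26 with no scaling and -0.14 on RPKM.

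The sign changed for some genes that were not called, CKS2 and MYB3R1 (both 0.22 in the edgeR fit) among them. With no scaling the values were -0.031 for CKS2, -0.24 for CYCB1;2, -0.25 for KNOLLE, -0.13 for MAD2 and -0.0041 for MYB3R1. On RPKM with pseudocount 1 or without the filter they were -0.0017, -0.20, -0.22, -0.097 and -0.025, and with pseudocount 0.1 -0.0017, -0.21, -0.22, -0.098 and -0.029. With ore15-2 replicates 1 and 2 left out they were -0.025 for CKS2, -0.27 for CYCB1;2, -0.35 for KNOLLE and -0.099 for MAD2. CYCB1;2 and KNOLLE were at -0.045 and -0.046 with upper-quartile scaling, -0.011 and -0.010 with the stricter filter, and -0.051 and -0.060 with limma-voom. Over single libraries CYCA2;4 ranged from -0.16 to 0.026, CYCB1;2 from -0.11 to 0.12 and KNOLLE from -0.17 to 0.15. The causes were not tested.

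Libraries of the 2 genotypes with the same replicate number share only that number: their deviations correlated at 0.062, 0.083 and -0.203, and not every library correlated best with its own number. The replicate block called 0 members and 1641 of all genes, with a members' median of -0.062 and KNOLLE at -0.0041. Low depth limits the members with few counts in ore15-2 replicates 1 and 2, such as CYCB2;1 with 13 and CYCA2;1 with 16 counts in replicate 2.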
